A study of Mus musculus with 48 samples.

Results

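The 51 genes described here are cell cycle and DNA replication genes, taken by symbol from the 49671 rows of a count table of cytokine-treated mouse melanoma cells. They comprised 5 G1 cyclins and kinases, 8 regulators of the G1/S transition, 17 S phase genes and 21 genes of G2 and mitosis. All 51 passed the filter for low counts and stood among the 12203 genes tested. RNA was sequenced from NMM cells, an established mouse melanoma line that carries a mutated NRAS gene, which is a constant activator of growth signalling in every group. The cells received IFNγ at 100 ng/ml together with TNF at 10 ng/ml, called the combination here, or IFNγ alone at 0.01, 1 or 100 ng/ml, or TNF alone at 0.1, 1 or 10 ng/ml. Further cells received 5000 U/ml of IFNα1, 10 ng/ml of TGFβ, 2 ng/ml of the cytokine lymphotoxin α1β2 or 6000 U/ml of IL-2, while control cells stayed unstimulated. Each of the 12 groups was sequenced after 2, 6, 12 and 24 h, with 1 library per group and duration, so the study has 48 libraries. The durations are not replicates, and the spread in the tests below comes from how the differences between groups varied over the 4 durations. The labels do not say that the libraries came from separate cultures. Doses follow the titles and stimulus labels, since separate dose fields read 1 for TNF at 0.1 ng/ml and for IFNγ at 0.01 ng/ml.

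In a dividing cell, D-type cyclins with Cdk4 or Cdk6 start the exit from G1 by phosphorylating the retinoblastoma protein, which releases E2F transcription factors. E2F factors then drive cyclin E and the genes that load and fire replication origins and supply nucleotides. Genes of G2 and mitosis follow later in the cycle, are held down in resting cells by the DREAM complex, and are switched on by B-MYB and FOXM1. IFNγ and TNF are cytokines made by T cells, and each is known to slow the growth of some tumour lines.

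Libraries held 5612907 to 9663207 counts, so 1 count was worth 0.103 to 0.178 CPM, the usual scaled count. The combination libraries held 7218587 to 9663207 counts and the unstimulated ones 6046675 to 7749222. Mitochondrial genes took 0.513 to 1.437% of counts. At 2, 6, 12 and 24 h they took 1.27, 0.959, 0.616 and 0.513% under the combination, against 1.17, 1.199, 0.786 and 0.964% in unstimulated cells, lower from 6 h on. The cells responded to the cytokines: Irf1, an interferon-induced transcription factor, was higher by 4.61 under the combination on the log2 scale, and Nfkbia, the NF-κB inhibitor, by 3.27. Markers of the melanocyte lineage were nearly absent. Sox10, Tyr and Tyrp1 had 2 counts each over the 48 libraries, Mlana and Dct had 0, and Mitf had 3.50 to 12.6 CPM. Col3a1, a fibroblast collagen, was lower by 1.38 ± 0.32 (approximate SE, log2; the same error follows ± at each change below) under the combination. Dpt and Lum, also on the fibroblast list, were near 0. Over the 48 libraries Col3a1 had 31.8 to 563 CPM, and Pdgfra, on that list too, had 3.39 to 21.9 CPM. The fibroblast sums here and below are therefore mostly Col3a1 and do not show a change of the list as a whole. A change of Pdgfra is given with TNF below, where it was opposite in direction to that of Col3a1 and neither was called. The fibroblast markers summed to 49.5 to 297.4 CPM in the combination libraries and to 319.3 to 495.8 CPM in the unstimulated ones. The endothelial markers summed to 4.35 to 13.5 CPM under the combination and 3.74 to 6.80 CPM in unstimulated cells. The part of these markers and of the mitochondrial share in the results below was not tested. RNA came from whole cultures, so fewer cells in a phase and less RNA per cell cannot be told apart.

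Promoter sequences are shown first, because the mitotic and S phase genes, whose changes are given apart below, differ in the short words found near their start sites. Windows from 250 bases before to 50 bases after the start site were read from a table of RefSeq promoters (GRCm38.p6), in which 40 of the 51 members were matched. On both strands, 3 sets of words were searched: TTTGGCGC, TTTCGCGC and TTTCCCGC, which are forms of the E2F site; TTTGAA and TTCGAA, which are forms of the cell cycle homology region (CHR) bound by DREAM; and CCAAT. TTTGGCGC and TTTCGCGC can overlap on opposite strands. Both a CHR word and CCAAT stood in 13 of 16 mitotic promoters (81.2%), 3 of 14 S phase promoters (21.4%) and 745 of the 9185 promoters of tested genes (8.11%). An E2F word stood in 1 of 16 mitotic promoters (6.25%), 6 of 14 S phase promoters (42.9%) and 386 of the tested 9185 (4.2%). Over the table's 27025 genes, CHR with CCAAT was found in 9.65% and an E2F word in 2.12%. A match describes these letters and is not a site shown to be bound. The 3 mitotic windows below are Ccnb2 at chr9:70421505-70421804 (minus strand), Cenpa at chr5:30666636-30666935 (plus) and Bub1b at chr2:118597961-118598260 (plus). Capitals mark matched words, which appear as ATTGG where CCAAT lies on the other strand.
Ccnb2: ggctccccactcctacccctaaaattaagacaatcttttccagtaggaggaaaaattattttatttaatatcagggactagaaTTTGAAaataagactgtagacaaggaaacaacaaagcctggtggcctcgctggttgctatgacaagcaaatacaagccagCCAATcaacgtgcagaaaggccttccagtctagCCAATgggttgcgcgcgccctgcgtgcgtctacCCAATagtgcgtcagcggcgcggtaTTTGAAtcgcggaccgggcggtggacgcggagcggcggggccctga
Cenpa: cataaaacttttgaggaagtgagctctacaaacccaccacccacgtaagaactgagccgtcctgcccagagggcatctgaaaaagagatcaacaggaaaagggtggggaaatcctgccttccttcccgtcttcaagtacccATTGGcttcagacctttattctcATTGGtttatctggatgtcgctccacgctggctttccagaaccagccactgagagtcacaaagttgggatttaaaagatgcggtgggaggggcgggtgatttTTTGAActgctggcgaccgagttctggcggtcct
Bub1b: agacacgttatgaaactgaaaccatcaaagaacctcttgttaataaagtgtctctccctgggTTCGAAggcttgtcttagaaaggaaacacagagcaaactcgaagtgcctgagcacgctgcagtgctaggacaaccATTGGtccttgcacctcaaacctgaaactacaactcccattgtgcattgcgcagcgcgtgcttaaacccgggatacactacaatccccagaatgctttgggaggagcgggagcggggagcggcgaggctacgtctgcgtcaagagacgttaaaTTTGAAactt
Ccnb2 encodes cyclin B2, Cenpa the histone variant of the centromere and Bub1b a spindle checkpoint kinase. The CHR word TTTGAA began at base 5 of the transcribed part in Ccnb2, at base 17 in Cenpa and at base 41 in Bub1b. The next pair encode subunits of the MCM helicase that unwinds DNA at replication forks, Mcm5 at chr8:75109259-75109558 (plus) and Mcm6 at chr1:128359656-128359955 (minus). Each holds 2 E2F words on opposite strands that overlap, printed as 1 run of capitals, and Mcm6 holds another TTTGGCGC nearer its start site. Ccne1, at chr7:38107441-38107740 (minus), encodes cyclin E1, and none of the words searched is in its window.
Mcm5: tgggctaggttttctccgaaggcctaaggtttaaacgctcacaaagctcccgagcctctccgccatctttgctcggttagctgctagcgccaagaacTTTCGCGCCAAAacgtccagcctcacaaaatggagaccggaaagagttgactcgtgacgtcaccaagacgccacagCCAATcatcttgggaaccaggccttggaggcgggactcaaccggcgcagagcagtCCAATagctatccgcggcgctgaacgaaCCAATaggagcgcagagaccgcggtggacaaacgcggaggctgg
Mcm6: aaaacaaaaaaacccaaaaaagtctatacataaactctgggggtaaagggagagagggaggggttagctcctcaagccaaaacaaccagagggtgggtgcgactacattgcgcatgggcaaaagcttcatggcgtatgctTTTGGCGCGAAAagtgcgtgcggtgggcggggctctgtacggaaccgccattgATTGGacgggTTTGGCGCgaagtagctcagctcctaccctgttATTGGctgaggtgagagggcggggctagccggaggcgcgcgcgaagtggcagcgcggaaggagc
Ccne1: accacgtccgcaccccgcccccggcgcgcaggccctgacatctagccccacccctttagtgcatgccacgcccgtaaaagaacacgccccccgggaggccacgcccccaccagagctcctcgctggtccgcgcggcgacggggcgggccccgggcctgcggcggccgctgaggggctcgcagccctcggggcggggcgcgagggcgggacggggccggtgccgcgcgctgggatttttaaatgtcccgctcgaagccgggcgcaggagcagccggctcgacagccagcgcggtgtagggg

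In unstimulated cells the members covered a wide range of levels per length. By RPKM, reads scaled by exon length and depth, Ccnd1, which encodes cyclin D1, had the highest level with 193 ± 33 (SD over the 4 durations). Cdk4 followed with 141 ± 2.26 RPKM, and Rrm2, a subunit of the enzyme that makes deoxynucleotides, with 94.8 ± 12.9 RPKM. The lowest were Cdc25c, a phosphatase that activates mitotic CDK1, with 3.99 ± 0.66 RPKM, and E2f2 with 1.47 ± 0.51 RPKM. Ccnb2 stood at 28.1 ± 5.54, Ccne1 at 13 ± 2.33, Mcm10 at 9.15 ± 1.95 and Cdk6 at 8.33 ± 0.77 RPKM. The last pair, Mcm10 and Cdk6, had close values. Their SD spans a time course and does not test a difference in level.

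Combined IFNγ and TNF were compared with no stimulus to ask how the cell cycle transcripts moved under the treatment with the most called genes. Most genes of the G1 list rose and most of the mitotic list fell, while most G1/S regulators and S phase genes did not pass the test. Of the 21 mitotic members, 13 fell and 1 rose, of the 17 S phase members 3 rose and 2 fell, of the 8 G1/S regulators 2 rose and 1 fell, and of the 5 G1 members 4 rose and 1 fell. Among all 12203 genes, 20.9% rose and 21.2% fell (42% in all) by the same call, an adjusted p under 0.05. The fallen share was 61.9% for mitotic members and 11.8% for S phase members. The median log2 change was 0.35 for G1 members, 0.18 for G1/S regulators, 0.02 for S phase members, −0.25 for mitotic members and −0.03 for all genes. Over the 12 and 24 h libraries alone, 11 mitotic members fell and 2 rose, against 5 S phase members up and 2 down, 6 G1/S regulators up and 1 down, and 4 G1 members up and 1 down, beside 22.6% up and 21.2% down (43.8% in all) among 12228 genes. The 27 called members became 18 to 28 when 1 duration was left out, and 5, with 0 mitotic members lower, when only the 2 and 6 h libraries entered. With these groups alone in the model 9 were called, 4 of them lower mitotic members. The main model takes its spread from all 12 groups, and the cause of the lower count was not tested.

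**Figure D1:**
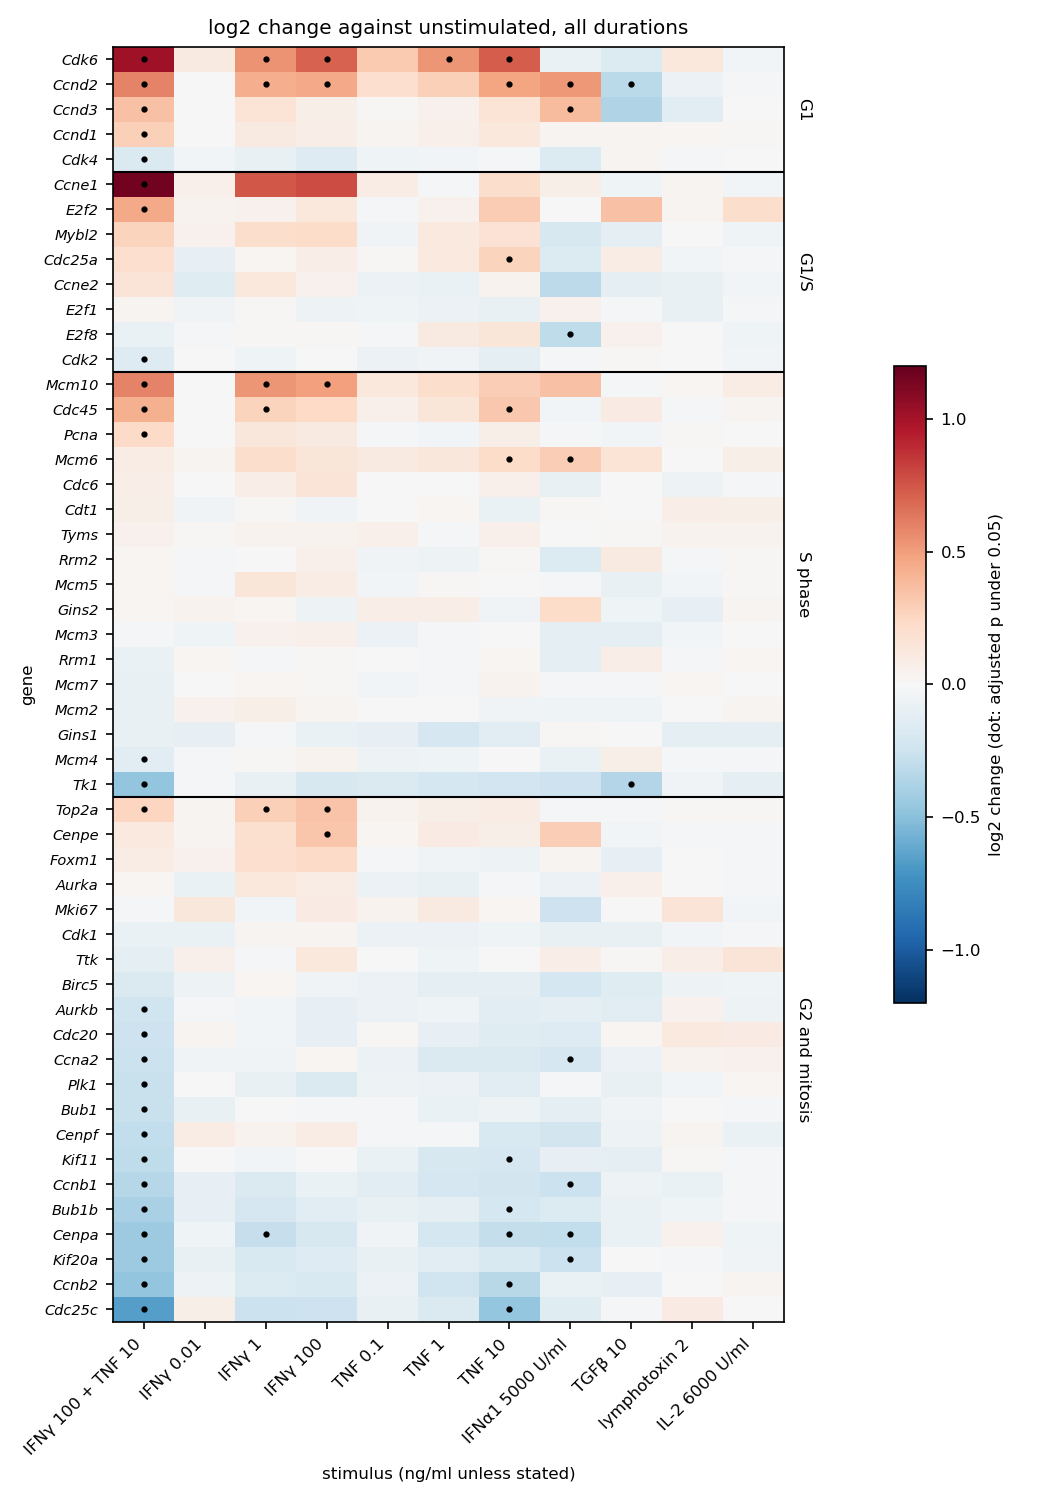
Each row is a member, ordered by list, and each column a stimulus; colour gives the log2 change against unstimulated cells, over the 4 durations. Under the combination, mitotic rows are mostly below 0 while G1 rows lie mostly above it, and the lymphotoxin and IL-2 columns are close to 0.

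Of the G1 members, Cdk6, a kinase partner of D-type cyclins (ENSMUSG00000040274, chromosome 5, 3341485 to 3531008), changed most. Cdk6 had 247, 277, 206 and 221 CPM at 2, 6, 12 and 24 h under the combination, against 102, 128, 116 and 119 CPM in unstimulated cells. Each combination library lay above every unstimulated one. The log2 change was 1.01 ± 0.14 (edgeR adjusted p = 3.03e-07). Ccnd2, which encodes cyclin D2, had 276, 390, 408 and 322 CPM under the combination and 220, 260, 246 and 193 CPM in unstimulated cells, so the groups did not overlap, with a change of 0.60 ± 0.09 (edgeR adjusted p = 6.85e-07). Cyclin D1 rose by less, with 692, 1305, 1270 and 1223 CPM under the combination and 684, 1036, 981 and 934 CPM in unstimulated cells, a change of 0.28 ± 0.07. The 2 h values of Ccnd1 were nearly equal. Ccnd3, for cyclin D3, had 51.2, 127, 145 and 105 CPM under the combination against 58.0, 97.5, 96.1 and 73.9 CPM, and rose by 0.35 ± 0.12, a call lost without the 12 h or the 24 h libraries. Cdk4 fell by 0.17 ± 0.06 on the log2 scale, with 322 CPM at 24 h under the combination against 448 CPM in unstimulated cells. That call was lost without the 6 h or the 24 h libraries.

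Ccne1, which encodes the cyclin that activates Cdk2 at the start of S phase (ENSMUSG00000002068, chromosome 7, 38097984 to 38107534), rose late. It had 29.4, 48.8, 128 and 112 CPM at 2, 6, 12 and 24 h under the combination, against 34.6, 42.7, 33.8 and 27.6 CPM in unstimulated cells. At 2 h the combination library lay below the unstimulated one, and at 12 and 24 h it lay far above. The change was 1.16 ± 0.29 over all durations (edgeR adjusted p = 0.00162) and 1.98 ± 0.16 over 12 and 24 h (edgeR adjusted p = 1.38e-08). The first of these calls was lost without the 12 h or the 24 h libraries. Per doubling of hours, the difference from unstimulated cells grew by 0.72 ± 0.11 on the log2 scale. E2f2, an activating E2F factor, had 2.18, 9.21, 14.4 and 15.3 CPM under the combination and 3.59, 9.01, 8.68 and 7.39 CPM in unstimulated cells. Its change of 0.45 ± 0.19 barely passed (edgeR adjusted p = 0.04999) and was lost without the 12 h or the 24 h libraries, while over 12 and 24 h it was 0.90 ± 0.18. Cdk2 fell by 0.16 ± 0.06, with 43.7, 47.6, 62.3 and 54.8 CPM under the combination and 52.7, 61.1, 57.9 and 59.7 CPM in unstimulated cells, and lost its call without the 2 h, the 6 h or the 24 h libraries. Ccne2 (cyclin E2), the phosphatase Cdc25a, Mybl2 (B-MYB) and E2f1 did not pass over all durations, at 0.15, 0.20, 0.27 and 0.03, but passed over 12 and 24 h, at 0.55, 0.42, 0.40 and 0.25. E2f8, a repressing E2F, fell by 0.23 ± 0.09 over 12 and 24 h.

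**Figure D2:**
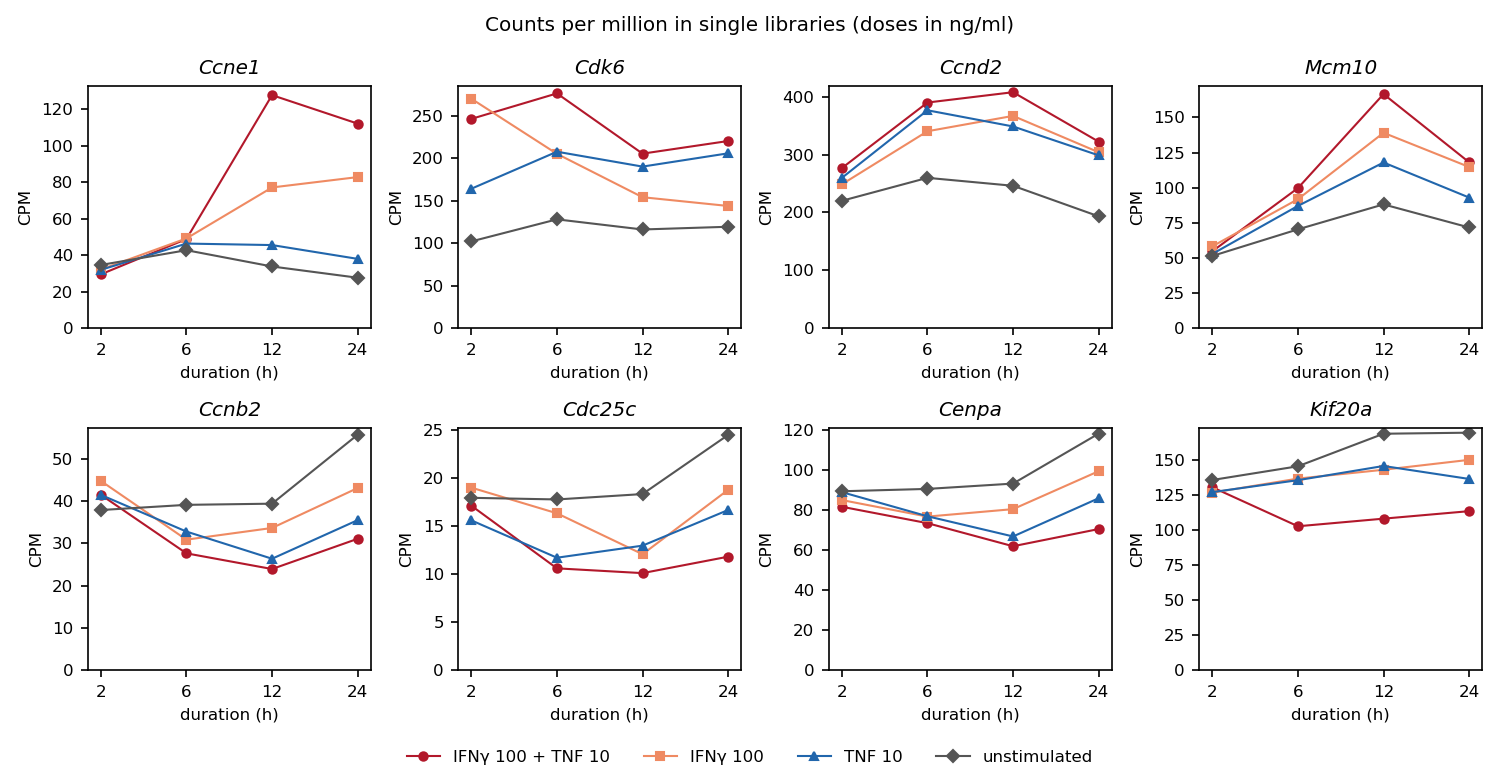
CPM in each library (vertical axis) is plotted against hours of stimulation for 8 members under the combination, IFNγ at 100 ng/ml, TNF at 10 ng/ml and no stimulus. Ccne1 under the combination reaches 128 CPM at 12 h against 33.8 CPM in unstimulated cells, and Ccnb2 lies at 23.9 against 39.4 CPM.

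Among S phase genes, Mcm10, Cdc45 and Pcna rose and Tk1 and Mcm4 fell. Mcm10, a factor of origin firing, had 54.7, 99.7, 167 and 118 CPM under the combination against 51.4, 70.3, 88.1 and 71.6 CPM in unstimulated cells, higher at each duration but with overlapping ranges. It rose by 0.59 ± 0.12 (edgeR adjusted p = 0.000184). Cdc45, part of the replicative helicase, had 46.7, 46.4, 72.7 and 71.0 CPM against 36.5, 40.2, 50.5 and 47.5 CPM and rose by 0.43 ± 0.09 (edgeR adjusted p = 0.000144). Pcna, the sliding clamp of DNA polymerase, had 173, 159, 248 and 190 CPM under the combination and 167, 160, 175 and 150 CPM in unstimulated cells. Pcna rose by 0.23 ± 0.07 over all durations, lost without the 12 h or the 24 h libraries, and by 0.43 ± 0.07 over 12 and 24 h. Tk1, thymidine kinase of the nucleotide salvage pathway, moved the other way, with 38.7, 37.3, 44 and 35.5 CPM under the combination against 53.7, 62.3, 55.3 and 44.3 CPM. Tk1 was lower at each duration and fell by 0.47 ± 0.08 (edgeR adjusted p = 1.95e-05). At 2 h its log2 ratio to the unstimulated library was −0.47 under the combination, but also −0.39 with IL-2 and −0.22 with lymphotoxin. At 6 h the ratios were −0.74, −0.07 and −0.04 in the same order. Mcm4 fell by 0.13 ± 0.05, a call lost without the 6, 12 or 24 h libraries. The other helicase subunits Mcm2, Mcm3, Mcm5, Mcm6 and Mcm7 did not pass and stood at −0.09, −0.02, 0.02, 0.09 and −0.08. Of the remaining 7 S phase members, Rrm2 and Cdc6 rose over 12 and 24 h, by 0.20 ± 0.06 and 0.30 ± 0.11.

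Mitotic members fell most at 6, 12 and 24 h. Cdc25c had 17.1, 10.6, 10.1 and 11.8 CPM under the combination, against 17.9, 17.8, 18.3 and 24.5 CPM in unstimulated cells. The ranges did not overlap, and the 2 h values were close. The change was −0.67 ± 0.14 (edgeR adjusted p = 0.00012). Ccnb2 (ENSMUSG00000032218, chromosome 9, 70407692 to 70421547), whose promoter is printed above, had 41.5, 27.6, 23.9 and 31.1 CPM under the combination and 37.9, 39.1, 39.4 and 55.7 CPM in unstimulated cells. It was higher at 2 h and lower afterwards, with a change of −0.48 ± 0.11 (edgeR adjusted p = 0.000516). Cenpa had 81.5, 73.3, 61.8 and 70.4 CPM under the combination against 89.3, 90.4, 93.1 and 118 CPM, with no overlap, and changed by −0.43 ± 0.09 (edgeR adjusted p = 0.000202). Bub1b had 85.4, 84.5, 83.9 and 84.2 CPM under the combination, nearly flat, against 90.0, 104, 124 and 130 CPM in unstimulated cells, with no overlap, and changed by −0.39 ± 0.07 (edgeR adjusted p = 4.83e-05). Kif20a, a kinesin of cytokinesis, had 131, 103, 108 and 114 CPM against 136, 146, 169 and 170 CPM, with no overlap, and changed by −0.44 ± 0.08 (edgeR adjusted p = 1.32e-05). The mitotic cyclin gene Ccnb1 had 91.7, 70.7, 61.5 and 68.7 CPM against 91.4, 93.3, 92.4 and 90.6 CPM and changed by −0.34 ± 0.08. The other fallen members were the spindle motor Kif11, the kinetochore and checkpoint genes Cenpf, Bub1 and Cdc20, the kinases Plk1 and Aurkb, and Ccna2 (cyclin A2), with changes of −0.30 to −0.24. Without the 12 h libraries the calls of Cenpf, Aurkb, Cdc20 and Plk1 were lost, without the 6 h libraries those of Cenpf, Aurkb and Ccna2, and without the 24 h libraries that of Cdc20.

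Not all mitotic genes went down. Top2a, the topoisomerase that untangles chromosomes, had 602, 624, 782 and 775 CPM under the combination against 497, 502, 714 and 621 CPM, higher at each duration, and rose by 0.26 ± 0.05 (edgeR adjusted p = 0.00015). Mki67, the Ki-67 proliferation marker, had 294, 239, 335 and 374 CPM against 255, 253, 427 and 340 CPM and stood at −0.03 ± 0.09. Cdk1, the kinase of mitotic entry, and Aurka did not pass either, at −0.08 and 0.02. Foxm1, the transcription factor of mitotic genes, stood at 0.09 ± 0.09 over all durations and rose by 0.29 ± 0.09 over 12 and 24 h. Of the 9 fallen mitotic members with a RefSeq window, 8 held both a CHR word and CCAAT and 0 an E2F word, beside 81.2% and 6.25% of all mitotic windows. Those shares include the same 9 genes. Both words also stood in the windows of Top2a, which rose, and of Aurka, Cdk1, Mki67 and Ttk, which did not pass. Birc5 and Cenpe, not called either, lacked a CHR word.

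By duration, with no test, the mitotic median of log2 ratios was −0.06 at 2 h, −0.29 at 6 h, −0.35 at 12 h and −0.15 at 24 h, with 13, 18, 18 and 16 of the 21 members below 0. The G1/S median was −0.22, 0.05, 0.37 and 0.44, and the S phase median stayed between −0.06 and 0.10. The median of all genes lay between −0.03 and 0.01 at these durations. Relative to the unstimulated mean, the mean mitotic log2 level at 24 h was −0.14 under the combination and 0.12 in unstimulated cells. With IL-2 it was 0.02 and with lymphotoxin 0.07, so these groups also lay below the unstimulated library at 24 h. At all 4 durations 10 of 21 mitotic members were lower, against 21.8% of all genes. This was not particular to the combination. The count was also 10 under TNF at 1 ng/ml (14.8% of genes), and 8 at 10 ng/ml (18.7%). It was 7 under IFNα1 (14.5% of genes), and 2 under IFNγ at 100 ng/ml (17.4%). IFNγ at 1 and 0.01 ng/ml had 5 each, beside 17.2% and 7.70% of genes. IL-2 and lymphotoxin had 0, beside 5.63% and 5.95%. The tested slope per doubling of hours was called for 7 rising and 6 falling members, beside 8.04% and 9.37% of 12203 genes (17.4% in all), and the 13 called slopes became 1 without the 2 h and 8 without the 24 h libraries. All 6 falling slopes belonged to mitotic members, the steepest being Ccnb2 at −0.27 ± 0.06 and Cdc25c at −0.27 ± 0.08.

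**Figure D3:**
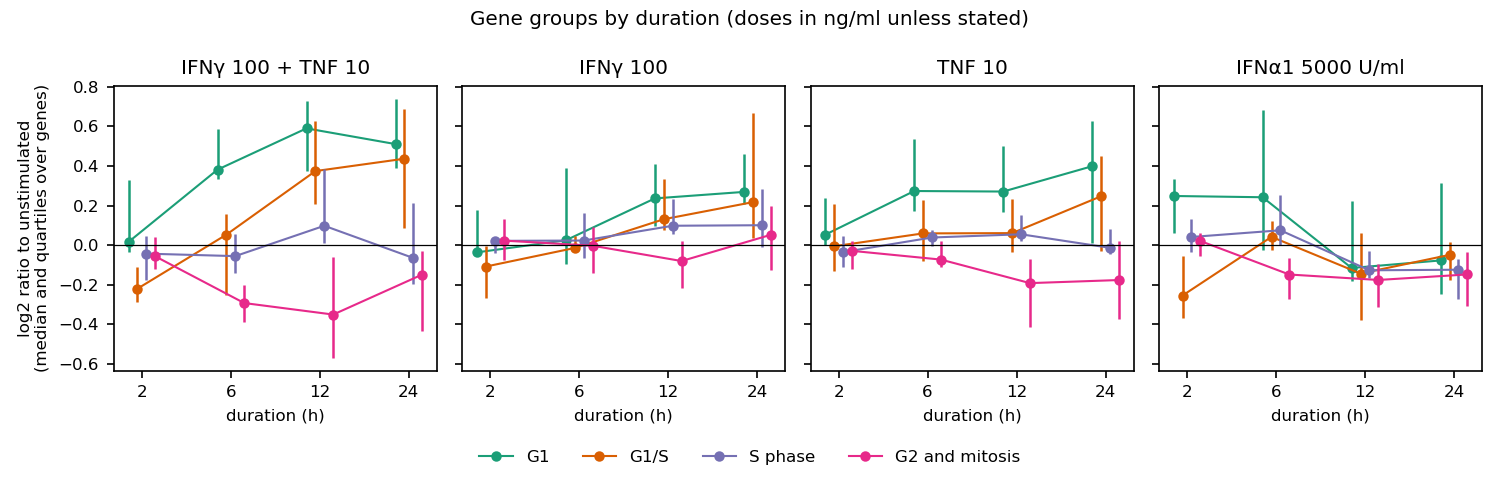
The median log2 ratio to unstimulated cells, with quartiles over members, is plotted against hours for the 4 lists under the combination, IFNγ at 100 ng/ml, TNF at 10 ng/ml and IFNα1. The mitotic median under the combination reaches −0.35 at 12 h while the S phase median is 0.10.

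IFNγ alone was compared at 3 doses with the same 4 unstimulated libraries that serve every stimulus. At 100 ng/ml, 5 members rose, Cdk6, Ccnd2, Mcm10, Top2a and the kinetochore motor Cenpe, beside 12.8% of all genes up and 9.3% down (22.1% in all), and 3 further members were lower at an unadjusted p under 0.05. The risen share of members was 9.8%, near the background. The fibroblast markers summed to 172.2 to 332.6 CPM at 100 ng/ml IFNγ and 191.3 to 348.9 CPM at 1 ng/ml, against 319.3 to 495.8 CPM in unstimulated cells, and their part in the results was not tested. Cdk6 had 270, 205, 154 and 144 CPM at 100 ng/ml IFNγ against 102, 128, 116 and 119 CPM, highest at 2 h. Its change was 0.71 ± 0.14 (edgeR adjusted p = 0.00032), and its difference shrank per doubling of hours by a slope of −0.32 ± 0.05 (edgeR adjusted p = 4.34e-05). Ccne1 ran the other way in time, with 32.1, 49.1, 77.1 and 82.8 CPM against 34.6, 42.7, 33.8 and 27.6 CPM. Its change did not pass over all durations, at 0.78 ± 0.30 (edgeR adjusted p = 0.0539), but did over 12 and 24 h, at 1.40 ± 0.16 (edgeR adjusted p = 5.52e-06). Mcm10 had 58.2, 91.8, 139 and 115 CPM against 51.4, 70.3, 88.1 and 71.6 CPM and rose by 0.49 ± 0.12. Cdc25c and Cenpa fell over 12 and 24 h, by 0.48 ± 0.15 and 0.23 ± 0.08 on the log2 scale. In that comparison 3 G1 members, 3 G1/S regulators, 4 S phase and 3 mitotic members rose, and 1 G1 and 2 mitotic members fell, beside 14.8% of genes up and 13% down (27.8% in all). The count over all durations was 11 without the 2 h libraries and 3 without the 12 h ones. Slopes were called for 5 members, beside 3.47% of genes with a rising and 3.43% with a falling one (6.9% in all), and for 8, 3 and 1 without the 6, 12 and 24 h libraries.

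At 1 ng/ml, 6 members were called, Cdk6, Ccnd2, Mcm10, Cdc45 and Top2a up and Cenpa down, beside 9.51% of genes up and 5.47% down (15% in all), and 3 without the 12 h or the 24 h libraries. Here too the risen share of members was near the background. Over 12 and 24 h 14 were called at 1 ng/ml, with 2 G1 members, 3 G1/S regulators, 5 S phase and 2 mitotic members up and the mitotic Cenpa and Bub1b down, beside 13% of genes up and 11% down (24% in all). At 1 ng/ml Cdk6 had 232, 182, 141 and 133 CPM, and Ccne1 35.8, 48.1, 81.9 and 70.8 CPM. At 0.01 ng/ml edgeR and DESeq2 called 0 members, 0 passed an unadjusted p under 0.05, and 0% of all genes were called. Cdk6 had 138, 131, 111 and 126 CPM at that dose. Between 100 and 1 ng/ml edgeR and DESeq2 called 0 members and 0% of genes, and 1 member passed an unadjusted p under 0.05. A difference that missed the test does not show that both doses act alike.

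With TNF at 10 ng/ml, 2 of the 5 G1 members rose and 5 of the 21 mitotic members fell. Of 51 members 5 rose, Ccnd2, Cdk6, Cdc25a, Mcm6 and Cdc45, and 5 fell, Cdc25c, Ccnb2, Cenpa, Bub1b and Kif11, beside 9.83% of genes up and 7.3% down (17.1% in all). The risen share of members was near that of all genes. All 5 that fell are mitotic, a share of 23.8% of that list. Cdk6 had 164, 208, 190 and 206 CPM at 10 ng/ml TNF against 102, 128, 116 and 119 CPM, without overlap, a change of 0.72 ± 0.14 (edgeR adjusted p = 0.000353). Ccnb2 had 41.5, 32.8, 26.4 and 35.5 CPM against 37.9, 39.1, 39.4 and 55.7 CPM, lower from 6 h on, a change of −0.34 ± 0.11 (edgeR adjusted p = 0.0271). Cdc25c had 15.6, 11.7, 13 and 16.7 CPM against 17.9, 17.8, 18.3 and 24.5 CPM, with no overlap, a change of −0.47 ± 0.13 (edgeR adjusted p = 0.0123). Ccne1 had 31.9, 46.3, 45.5 and 37.9 CPM against 34.6, 42.7, 33.8 and 27.6 CPM, and did not pass. The count of 10 was 3 without the 6 h, 2 without the 12 h and 3 without the 24 h libraries, with 0 mitotic members lower in each, and 14 without the 2 h libraries, with 8 mitotic members lower. Over 12 and 24 h, 8 mitotic members fell, beside 10.8% of genes up and 8.8% down (19.6% in all). Per doubling of hours, 2 members fell, E2f8 and Ccnb2, beside 1.06% of genes up and 1.38% down (2.43% in all). Col3a1 was lower by 0.89 ± 0.31 and the fibroblast markers summed to 150.5 to 295.0 CPM at this dose. Against 1 ng/ml TNF, Col3a1 stood at −0.38 ± 0.31 and Pdgfra, of the same list, went the other way at 0.36 ± 0.17, neither called. The endothelial markers summed to 4.83 to 18.5 CPM at 10 ng/ml TNF, against 3.74 to 6.80 CPM in unstimulated cells. The part of these markers in the result was not tested.

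At 1 ng/ml TNF, Cdk6 alone was called, with 171, 196, 168 and 141 CPM and a change of 0.53 ± 0.14 (edgeR adjusted p = 0.031), beside 2.01% of genes up and 0.713% down (2.72% in all). That count of 1 became 0 to 3 when a duration was left out. At 0.1 ng/ml edgeR and DESeq2 called 0 members, beside 0.00819% of genes in each direction, and 3 members passed an unadjusted p under 0.05. Cdk6 had 202, 149, 118 and 119 CPM there, high at 2 h and at the unstimulated level at 12 and 24 h. Between 10 and 1 ng/ml TNF edgeR and DESeq2 called 0 members, beside 0.238% of genes up and 0% down, and 3 passed an unadjusted p under 0.05.

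The combination was then compared with each of its parts. Against 100 ng/ml IFNγ, 12 members were called: Ccnd1 rose, Tk1 and Mcm4 fell, and 9 mitotic members fell, beside 8.49% of genes up and 5.42% down (13.9% in all). The fallen mitotic members were Cdc25c, Cenpf, Kif11, Ccna2, Kif20a, Ccnb1, Bub1, Bub1b and the checkpoint kinase Ttk, at −0.42 to −0.24. Cenpf had 95.7, 85.8, 148 and 167 CPM under the combination against 124, 122, 202 and 196 CPM with IFNγ alone, lower at each duration, a change of −0.38 ± 0.09 (edgeR adjusted p = 0.00148). The 9 became 1 without the 6 h, 2 without the 12 h and 5 without the 24 h libraries. Against 10 ng/ml TNF, 4 members were called, beside 9.12% of genes up and 4.84% down (14% in all). Ccne1 and Top2a rose, by 0.95 ± 0.29 and 0.17 ± 0.05, and Kif20a and Bub1 fell, by 0.26 ± 0.08 and 0.21 ± 0.06 on the log2 scale, and the count was 10 without the 2 h, 2 without the 6 h and 0 without the 12 h or the 24 h libraries. The term for departure from the sum of both single effects was called for 0 members by edgeR and DESeq2. Of all genes, 0.0656% were called above and 0.0164% below (0.0819% in all). At an unadjusted p under 0.05 (edgeR) 7 members passed, 0 above the sum and 7 below it. On the log2 scale the term was 0.17 ± 0.41 for Ccne1, an error wide against the changes of that gene. It was −0.42 ± 0.20 for Cdk6, an estimate below the sum that was not called. These comparisons share libraries and are not independent of those above.

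**Figure D4:**
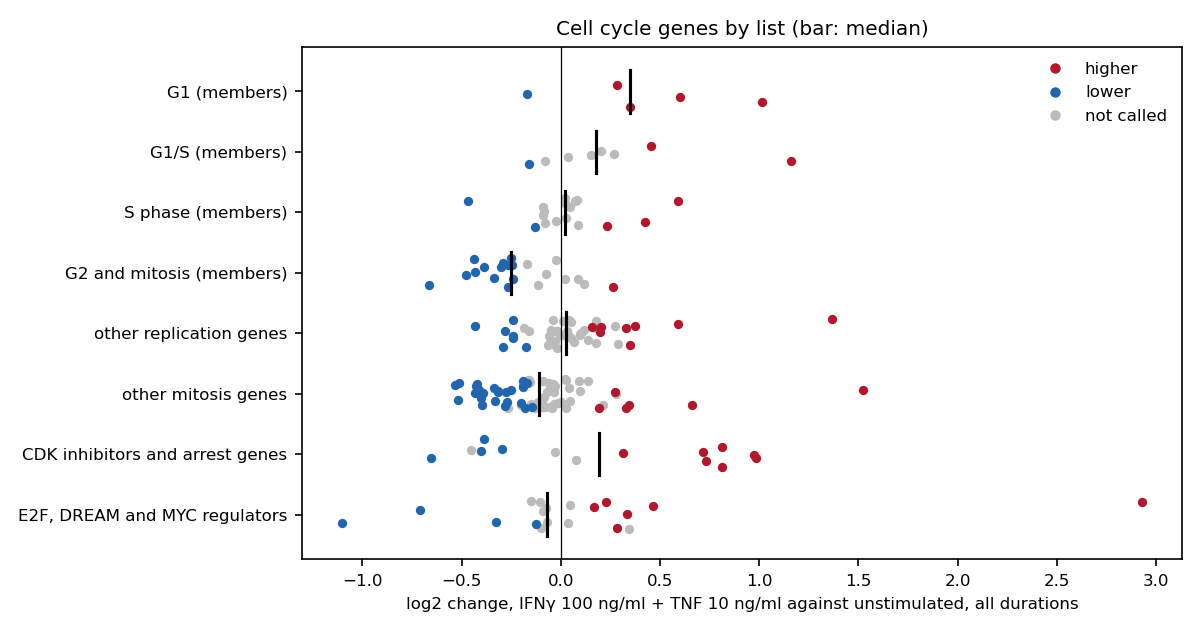
Each point is a gene's log2 change under the combination against unstimulated cells, by list, with bars at list medians. The mitotic members have a median of −0.25 and the S phase members one of 0.02.

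With IFNα1, a type I interferon, the cyclin genes Ccnd2 and Ccnd3 rose and some mitotic genes fell. Ccnd1 was not called, with log2 ratios of 0.06, 0.24, −0.12 and −0.08 at 2, 6, 12 and 24 h. Ccnd2, Ccnd3 and Mcm6 rose and E2f8, Cenpa, Kif20a, Ccnb1 and Ccna2 fell, beside 6.18% of genes up and 3.09% down (9.27% in all). Members rose in a share near that of all genes. Ccnd2 had 292, 451, 327 and 262 CPM at 5000 U/ml IFNα1 against 220, 260, 246 and 193 CPM, without overlap, and rose by 0.52 ± 0.09 (edgeR adjusted p = 8.21e-05). Ccnd3 had 68.9, 156, 112 and 91.7 CPM against 58.0, 97.5, 96.1 and 73.9 CPM, higher at each duration, and rose by 0.38 ± 0.12 (edgeR adjusted p = 0.0413). Of the 21 mitotic members, 7 were below 0 at 2 h and 19, 20 and 17 at 6, 12 and 24 h, with medians of 0.02, −0.15, −0.18 and −0.15. At all 4 durations 7 of the 21 were lower, beside 14.5% of all genes. The mean mitotic level at 24 h was −0.03 with IFNα1 and 0.12 in unstimulated cells, relative to the unstimulated mean. It was 0.02 with IL-2 and 0.07 with lymphotoxin, which had no called effect and also lay below the unstimulated library. Over 12 and 24 h, Ccne2, E2f8, Rrm1, Rrm2, Mki67, Cenpa, Ccna2 and Kif20a fell, and Ccnd2 and Ccnd3 rose, beside 5.99% of genes up and 3.47% down (9.45% in all). Ccne2 had 23.8 and 16 CPM at 12 and 24 h against 34.2 and 22.5 CPM in unstimulated cells, a change of −0.50 ± 0.12. The 8 calls over all durations became 1 without the 6 h libraries and 3 without the 12 h or the 24 h ones, with 0 mitotic members lower in each.

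Under TGFβ the genes of cyclin D2 and thymidine kinase fell. Ccnd2 had 181, 222, 194 and 142 CPM at 10 ng/ml TGFβ against 220, 260, 246 and 193 CPM, lower at each duration, and changed by −0.32 ± 0.09 (edgeR adjusted p = 0.0155). Tk1 had 39.7, 41.4, 49.0 and 38.2 CPM against 53.7, 62.3, 55.3 and 44.3 CPM and changed by −0.35 ± 0.08 (edgeR adjusted p = 0.00345). Its log2 ratio at 2 h was −0.43 under TGFβ, but also −0.39 with IL-2 and −0.22 with lymphotoxin. At 6 h the ratios were −0.59, −0.07 and −0.04 in the same order. These 2 calls stood beside 5.02% of genes up and 3.25% down (8.28% in all), and leaving out 1 duration left 1 or 2. Cdh5, an endothelial cadherin, rose by 1.25 ± 0.26 under TGFβ, and the endothelial markers summed to 5.47 to 27.3 CPM there, against 3.74 to 6.80 CPM in unstimulated cells. The fibroblast markers summed to 257.1 to 292.5 CPM under TGFβ, against 319.3 to 495.8 CPM in unstimulated cells, and the part of these markers in the result was not tested. Over 12 and 24 h Ccnd2 and Ccnd3 fell, beside 5.12% of genes up and 4.16% down (9.28% in all). Neither 2 ng/ml of lymphotoxin nor 6000 U/ml of IL-2 had a called effect: edgeR found 0 members and 0% of genes and DESeq2 0 members, with 0 members under lymphotoxin and 1 under IL-2 at an unadjusted p under 0.05. Ccnb2 had 42.7, 36.8, 41.1 and 51.3 CPM with lymphotoxin and 44.1, 37.3, 41.8 and 52.5 CPM with IL-2, against 37.9, 39.1, 39.4 and 55.7 CPM. The ranges of these groups overlapped.

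Members also moved with time in culture. The unstimulated, IL-2 and lymphotoxin libraries were used, 12 in all with 11680 tested genes, as groups with no called stimulus effect on members. At 6 h against 2 h, 25 members rose and 4 fell, beside 18.7% of genes up and 20.4% down (39.1% in all). Cdc6, which loads the helicase, rose by 0.65 ± 0.08, and E2f2, Ccnd3 and Ccnd1 by 0.91, 0.76 and 0.59. At 24 h against 12 h, 12 of 17 S phase members fell and 0 rose (edgeR; all members at an unadjusted p under 0.05 numbered 34 lower and 4 higher, and DESeq2 called 26 members), beside 12.7% of genes up and 13.8% down (26.5% in all). Of the 21 mitotic members, 10 fell and 2 rose in the same comparison. Mybl2, Ccne2 and Rrm2 fell by 0.73, 0.52 and 0.36, and Foxm1 and Ccna2 by 0.37 and 0.35, while Ccnb2 and Cenpa rose by 0.39 and 0.26. Relative to 2 h, 14 mitotic members were higher at 24 h and 2 lower, beside 25.5% of genes up and 24.4% down (49.9% in all), with Cenpe at 0.64 ± 0.05 and Cenpf at 0.61 ± 0.06, whereas Rrm2 and Ccne2 fell by 0.51 and 0.75. Libraries of 12 h reused the index sequences of 2 h and those of 24 h the sequences of 6 h, and each duration has its own libraries, so time and any processing by duration cannot be told apart.

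**Figure D5:**
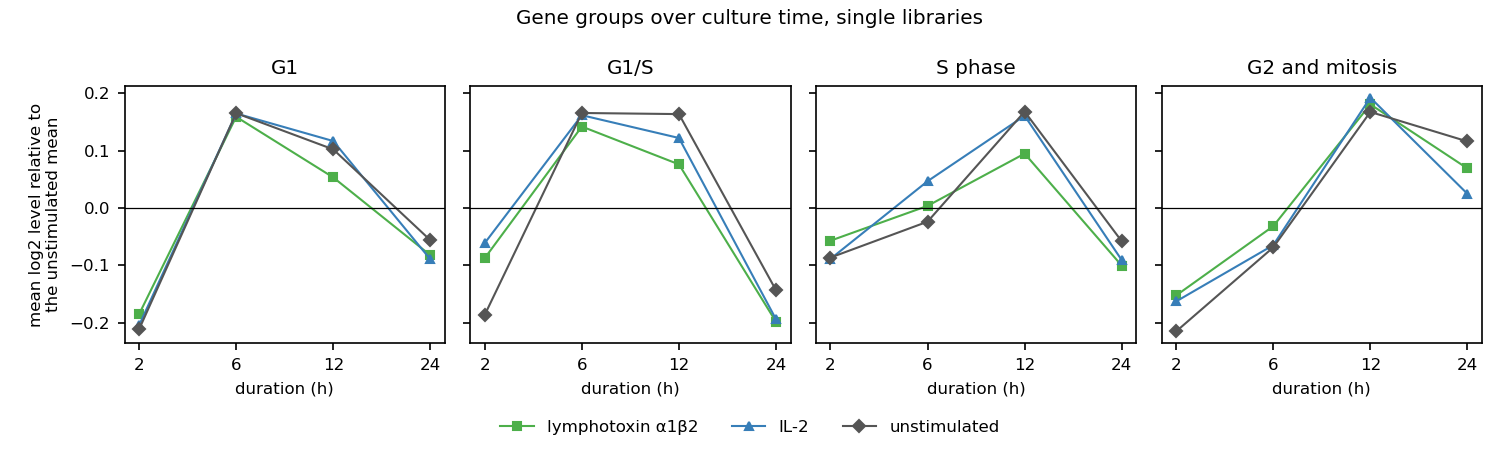
The mean log2 level of each list, relative to the unstimulated mean, is plotted against hours for lymphotoxin, IL-2 and unstimulated libraries. The unstimulated mitotic mean is −0.22 at 2 h and 0.17 at 12 h, and the S phase mean −0.09 and 0.17.

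Other genes of the same pathways were counted by list. Of 68 other mitosis genes tested, 25 fell and 6 rose under the combination, and of 48 other replication genes 8 rose and 7 fell, beside the background of 20.9% up and 21.2% down. Racgap1, a regulator of cytokinesis, had 126, 94.5, 92.6 and 96.1 CPM under the combination against 140, 149, 150 and 146 CPM, without overlap, a change of −0.52. Melk, a mitotic kinase gene, went the other way, with 36.9, 87.3, 190 and 163 CPM against 28.1, 37.8, 45.7 and 41.6 CPM, a change of 1.52. With 100 ng/ml IFNγ 12 other replication genes and 9 other mitosis genes rose and 3 mitosis genes fell, beside 12.8% and 9.3%. With 10 ng/ml TNF 8 other mitosis genes fell, beside 7.3% of all genes.

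Inhibitors of the cycle were mixed. Of 17 CDK inhibitor and arrest genes 14 were tested, and 7 rose and 4 fell under the combination, beside 20.9% of all genes up and 21.2% down. Cdkn1a, the p21 inhibitor of cyclin E and Cdk2, had 260, 207, 268 and 388 CPM under the combination against 168, 125, 139 and 137 CPM, without overlap, and rose by 0.97 ± 0.13. Cdkn1a had 236, 167, 246 and 229 CPM with 10 ng/ml TNF, where it rose by 0.62, and 165, 99.9, 158 and 203 CPM with 100 ng/ml IFNγ, where it did not pass. Cdkn1b, the p27 inhibitor, had 36.6, 39.8, 53.6 and 65.1 CPM under the combination against 51.7, 54.5, 65.6 and 84.1 CPM, lower at each duration, and fell by 0.40 ± 0.08 on the log2 scale. Cdkn2c and Cdkn2d did not pass, at −0.03 and 0.07, Cdkn1c had 51 counts over all libraries, and Cdkn2a and Cdkn2b had 0 counts in the 48 libraries, where 3 counts would be worth 0.310 to 0.534 CPM. Rbl2, a pocket protein of DREAM, fell by 0.65 on the log2 scale. Myc, a transcription factor of growth, had 524, 1189, 678 and 459 CPM under the combination against 590, 658, 451 and 312 CPM, lower at 2 h and higher after, and rose by 0.47 ± 0.13. Mxd1, an antagonist of Myc, rose by 2.93, and Mxd4, of the same family, fell by 1.10 on the log2 scale. Of 19 E2F, DREAM and MYC regulators tested, 6 rose (31.6%) and 4 fell (21.1%), the last near the 21.2% of all genes.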

How the data were processed

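The deposited values are raw counts per Ensembl gene, with no normalisation, for 48 libraries of the NMM line. Reads were aligned with HISAT to GRCm38, per the submitters' processing notes. The counter, like the HISAT version, annotation and strand setting, was not given in the sources used here; overlapping genes may share reads. The tests used edgeR 4.0.16 on limma 3.58.1, under R 4.3.3, with DESeq2 1.42.0 as an alternative. The edgeR filter (minimum count 10, minimum total 15) left 12203 genes, scaled by TMM. Stimulus and duration were additive terms in a robust quasi-likelihood fit of the 48 libraries (33 residual degrees of freedom). Further models covered the 12 and 24 h libraries (11), slopes on log2 hours (22), and the unstimulated, IL-2 and lymphotoxin libraries (6). Calls are Benjamini-Hochberg adjusted p under 0.05 over all tested genes, two-sided. Errors after ± are the log2 change divided by the root of F, unless named SD. CPM values use TMM-scaled library sizes, and single-duration ratios a prior count of 2, with no test. The duration term pairs libraries of the same duration, as the labels give them. Promoter windows came from RefSeq (GRCm38.p6). The models were checked on simulated counts that were independent between libraries. That check did not cover group differences that vary irregularly over the durations, which give the spread of the tests. The members and gene lists were chosen with earlier results of these data known. Named genes are any member, up to 3 called genes per pathway list and direction by largest change, CDK inhibitors, MYC, and label checks.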

Additional observations from a re-analysis of the deposited data

Results flagged for a closer look

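In 3 cases the mean log2 ratio of a list to unstimulated cells at 1 duration lay far from its values at the other 3 durations, relative to the range of all 4. The G1/S regulators under TNF at 1 ng/ml had 0.1106 at 24 h, against −0.01448 to −0.001446 at the other durations. The G1 cyclins and kinases under TNF at 10 ng/ml had 0.1453 at 2 h, against 0.3258 to 0.3475 later. The same G1 list under IFNγ at 100 ng/ml had 0.151 at 6 h, against 0.2419 to 0.2441 at the other durations. Chance gives such a gap in about 1 in 20 groups of 4, and the values are durations and not replicates. The rule was applied to each of the 4 lists under each of the 11 stimuli, all set against the same unstimulated libraries. A few such cases can therefore arise by chance.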

How the results depend on the processing

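The duration serves as the pairing block of the main model. With no replicate block, called members numbered 10 under the combination (6 lower mitotic), 16 over 12 and 24 h, 1 for IFNγ 100 ng/ml (2 over 12 and 24 h, 0 lower mitotic), 0 for IFNγ 1 ng/ml (1 over 12 and 24 h, 0 lower mitotic), 1 for TNF 10 ng/ml (0 lower mitotic; 2 and 1 over 12 and 24 h), and 0 for TNF 1 ng/ml, IFNα1 and TGFβ over either span and for the combination against IFNγ or TNF. With the compared groups alone, counts were 9 under the combination (4 lower mitotic), 3 against IFNγ (3 lower mitotic), 0 against TNF (0 lower mitotic), 5 for TNF 1 ng/ml (2 lower mitotic), and lower mitotic members 2 for TNF 10 ng/ml and 1 for IFNα1. Within the 2 and 6 h libraries, counts were 5 under the combination (0 lower mitotic), 1 against IFNγ (1 lower mitotic), 0 against TNF, 2 for IFNγ 100 ng/ml, 1 for IFNγ 1 ng/ml (0 lower mitotic), 1 for TNF 10 ng/ml (0 lower mitotic), 0 for TNF 1 ng/ml, 4 for IFNα1 (0 lower mitotic) and 1 for TGFβ. With IL-2 libraries in place of unstimulated ones, IFNα1 gave 4 (2 lower mitotic; 6 over 12 and 24 h), TGFβ 1, and IFNγ 1 ng/ml 0 lower mitotic members (1 over 12 and 24 h).

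With no filter on low counts, IFNα1 gave 3 (1 lower mitotic), TNF 10 ng/ml 6 (3 lower mitotic), TNF 1 ng/ml 0 (0 lower mitotic over 12 and 24 h), IFNγ 1 ng/ml 0 lower mitotic members (1 over 12 and 24 h), IFNγ 100 ng/ml 1 lower mitotic member over 12 and 24 h and 3 slopes, the combination against TNF 1 lower mitotic member, and 6 h against 2 h 0. DESeq2 gave 2 for TNF 1 ng/ml, and lower mitotic members 3 for TNF 10 ng/ml, 1, 0 and 0 over 12 and 24 h for IFNγ 1 ng/ml, IFNγ 100 ng/ml and TNF 1 ng/ml, 1 for 24 h against 2 h and 0 for 6 h against 2 h. DESeq2 size factors gave 3 lower mitotic members for TNF 10 ng/ml and 1 for IFNγ 1 ng/ml over 12 and 24 h. Over all 12 stimuli, lower mitotic members numbered 6 for 24 h against 12 h, 1 for 24 h against 2 h and 5 for 6 h against 2 h.

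Leaving out 1 duration gave 18 to 28 members under the combination (9 to 14 lower mitotic), 3 to 11 for IFNγ 100 ng/ml (0 to 3), 3 to 9 for IFNγ 1 ng/ml (0 to 2), 2 to 14 for TNF 10 ng/ml (0 to 8), 0 to 3 for TNF 1 ng/ml (0 to 1), 1 to 11 for IFNα1 (0 to 6), 1 to 2 for TGFβ, 1 to 16 for the combination against IFNγ (1 to 12) and 0 to 10 against TNF (0 to 3). Slopes gave 1 to 17 (0 to 7) for the combination, 1 to 8 for IFNγ and 0 to 3 (0 to 1) for TNF. Leaving out 1 group from the culture time model gave 21 to 24 for 6 h against 2 h (0 to 1 lower mitotic), 21 to 28 for 24 h against 12 h (7 to 9) and 29 for 24 h against 2 h (1 to 2). Direction reversed for E2f2 under the combination within 2 and 6 h (−0.1636), and over all 12 stimuli for Cdk6 (−0.0016 at 6 h and −0.2165 at 24 h, each against 2 h), Cdk4 at 24 h against 12 h (−0.13, with no call in the main model) and Ccne1 at 24 h against 2 h (0.2018). Of 2162 alternatives run on 279 called gene values, 1565 kept call and direction, 593 lost the call and 4 reversed. The causes were not tested. With 1 library per group and duration, the depth of 5612907 to 9663207 counts does not replace replicates.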
